A study of Mus musculus with 12 samples.

Results

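Myc, Mycn, Mycl, Max, Mxi1, Mxd3, Mnt and Mlx encode transcription factors of the Myc network. These 8 genes were taken by symbol, with no measured value in the rule. All 8 were found among the 56691 mouse genes counted, and all 8 passed the low-count filter that left 13230 genes for testing. Expression was measured by QuantSeq, a 3′ mRNA sequencing method that primes on the poly(A) tail, in 12 libraries from R1 cells, a line of male mouse embryonic stem cells of 129/Sv background. In 3 libraries the cells had spent 6 days in 2i alone, in 3 they had spent 6 days in 2i with 25 µM of an MRE11 inhibitor, and in 3 they had spent 6 days in 2i with 50 µM of it. The other 3 came from untreated cells at day 0, called primed in the labels. 2i is a pair of inhibitors, of the kinases MEK and GSK3, that holds mouse stem cells in a naive state, and MRE11 is a nuclease that acts at DNA breaks and at stalled replication forks. The sources used here do not name the inhibitor. All groups came from the same line, which was kept in serum with LIF on gelatin. Serum with LIF was not continued to day 6 in any group, so what 2i did, what time did and what the medium did cannot be told apart.

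MYC, MYCN and MYCL are transcription factors that bind DNA as dimers with MAX, at the E-box CACGTG, and raise the output of genes for growth, nucleotide synthesis and ribosome assembly. MXI1, MXD3 and MNT compete for the same partner and the same sites and bring in the SIN3 corepressor, and MLX is the partner of a parallel branch that senses glucose products through MLXIP and MLXIPL. In mouse embryonic stem cells MYC proteins sustain self-renewal in serum with LIF. The stability of the MYC protein depends on phosphorylation by ERK, the kinase downstream of MEK, and by GSK3, itself a target of 2i. Only transcripts were measured here.

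The library totals ran from 5894561 to 7060126 counts. Whether replicates were separate cultures is not stated in the labels, and the p-values therefore speak only of the spread among these libraries, possibly a technical one. Replicate 1 stood apart in all 4 groups: its counts differed from those of replicates 2 and 3 by a chi-square of 8.82 to 11.7 per degree of freedom, against 2.48 to 6.64 between replicates 2 and 3. With replicate 1 of every group left out, a check chosen after seeing the data, the members called in 2i against primed cells and at 50 µM against 2i alone still numbered 3 and 2. Levels are counts scaled to library size by TMM (CPM). Since each transcript is read at its 3′ end, counts do not grow with transcript length, and CPM was compared between genes without dividing by length. Each change is a log2 fold change with its SE from the quasi-likelihood test of edgeR, fitted over all 12 libraries. A gene was called where its p, adjusted by Benjamini-Hochberg over all genes tested, was below 0.05. The fit held no term for replicate number, so it ignores any pairing of libraries by that number. Calls of members that changed with the number as a block are given beside the main ones or at the end. Pluripotency markers, 9 genes including Nanog and Sox2, summed to 4430 to 5060 CPM at 50 µM, 4648 to 4838 at 25 µM, 4620 to 4855 in 2i alone and 4195 to 4890 in primed cells. Single markers within that sum differed: Nanog averaged 1183 CPM in 2i alone and 550.0 in primed cells, Esrrb 295 and 192, Tdgf1 472 and 857, and Utf1 69.8 and 351. Pou5f1 had only 7.24 ± 3.31 CPM at 50 µM and 8.41 ± 0.705 in primed cells (SD, n = 3 each), and its reads may be shared with pseudogenes. The summed level of 9 fibroblast markers was 1.94 to 4.53 CPM at 50 µM, 6.59 to 7.81 at 25 µM, 12.9 to 17.8 in 2i alone and 32.4 to 73.7 in primed cells. Of these markers, Dcn, Lum and Postn had no count in primed cells, and Col6a1 had none in any six-day group. The whole sum in primed cells, the highest of the 4 groups, came from Col1a1, Col1a2, Col3a1, Col6a1, Thy1 and Pdgfrb. The summed level of 6 trophoblast markers was 82.6 to 114 CPM at 50 µM, 116 to 147 at 25 µM, 126 to 176 in 2i alone and 244 to 418 in primed cells, with Elf5 at 0 at 25 and at 50 µM. The sum of 6 mesoderm markers was 11.1 to 16.5 CPM at 50 µM, 13.3 to 16.9 at 25 µM, 15.5 to 17.7 in 2i alone and 6.53 to 8.72 in primed cells. That of 7 endoderm markers was 5.07 to 5.67 CPM at 50 µM, 6.67 to 8.31 at 25 µM, 7.98 to 8.87 in 2i alone and 6.22 to 15.1 in primed cells, and that of 6 neural markers 17.0 to 24.1 CPM over all libraries. The part of these markers in the results below was not tested. In bulk RNA, fewer cells of a type and less RNA per cell cannot be told apart.

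The genes lie on 6 chromosomes of GRCm38. Promoter windows, the 250 bases before each RefSeq start site on GRCm38.p6, were matched for 7 of the 8 genes, and Myc was not matched. They were searched on both strands for the E-box CACGTG, which reads the same on both strands, for the E2F motifs TTTGGCGC and TTTCGCGC and for the TCF motifs CTTTGAT and CTTTGAA, with overlapping matches counted. The windows of Mycn and Mycl, whose transcripts moved in opposite directions in 2i, and those of Mnt and Mlx, which hold an E-box, are printed 5′ to 3′ with every match in capitals.
Mycn, chr12:12941837-12942086, minus strand: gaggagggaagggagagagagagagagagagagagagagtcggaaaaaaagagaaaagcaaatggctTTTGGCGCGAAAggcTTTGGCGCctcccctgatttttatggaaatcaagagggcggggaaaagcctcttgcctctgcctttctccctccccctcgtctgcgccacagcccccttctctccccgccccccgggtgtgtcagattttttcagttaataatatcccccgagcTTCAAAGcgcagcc
Mycl, chr4:122995681-122995930, plus strand: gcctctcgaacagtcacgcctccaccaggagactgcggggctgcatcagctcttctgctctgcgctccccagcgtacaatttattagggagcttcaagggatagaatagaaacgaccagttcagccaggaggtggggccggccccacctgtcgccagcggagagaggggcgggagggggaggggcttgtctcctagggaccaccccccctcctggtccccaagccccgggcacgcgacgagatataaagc
Mnt, chr11:74830674-74830923, plus strand: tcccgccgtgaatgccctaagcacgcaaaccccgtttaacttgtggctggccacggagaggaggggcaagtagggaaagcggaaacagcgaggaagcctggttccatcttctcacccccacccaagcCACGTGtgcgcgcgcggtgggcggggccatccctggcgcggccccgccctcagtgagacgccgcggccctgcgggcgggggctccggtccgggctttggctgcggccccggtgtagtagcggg
Mlx, chr11:101087040-101087289, plus strand: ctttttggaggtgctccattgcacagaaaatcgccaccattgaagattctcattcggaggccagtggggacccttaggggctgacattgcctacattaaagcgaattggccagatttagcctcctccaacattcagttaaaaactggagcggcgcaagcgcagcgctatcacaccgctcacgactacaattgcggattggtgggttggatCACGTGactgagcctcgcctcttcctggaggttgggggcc
The Mycn window held 3 E2F matches, 183, 179 and 168 bases before the start site, of which the outer pair overlap and run together in capitals, and 1 TCF match near the start, read on the opposite strand. The windows of Mnt and Mlx each held 1 E-box, 123 and 40 bases before the start site, and those of Mycl, Max, Mxi1 and Mxd3 held none of these motifs. Over all 32851 promoter windows of the same length, 6.02% held the E-box, 0.654% an E2F motif and 7.48% a TCF motif. These are matches of letters and not measured binding.

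The comparison of 6 days in 2i alone with primed cells divided the MYC family. Myc and Mycn fell, Mycl rose, and no MAX partner on the repressor side was called. Of the 8 genes, 1 rose, 2 fell and 5 were not called, beside 40.4% of all genes tested (20.0% higher and 20.4% lower).

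Myc (ENSMUSG00000022346, chromosome 15, 61985391 to 61990374, plus strand) had 1.07, 0.589 and 0.807 CPM in the 3 libraries of 2i alone, against 14.8, 9.41 and 13.4 CPM in primed cells. These rest on 16 counts in 2i alone and 237 in primed cells. The groups lay far apart, and the level was 15.0-fold lower in 2i, a log2 change of −3.90 ± 0.42 with an edgeR adjusted p of 2.97e-07. Mycn, the family member most used by neural and early embryonic cells (ENSMUSG00000037169, chromosome 12, 12936093 to 12941914, minus strand), had 77.7, 91.9 and 65.2 CPM in 2i alone and 182, 240 and 242 CPM in primed cells. Every 2i library was below every primed one, a 2.83-fold lower level (−1.50 ± 0.15, edgeR adjusted p = 6.71e-07). Mycl, the family member with the weakest transforming activity (ENSMUSG00000028654, chromosome 4, 122995652 to 123002485, plus strand), went the other way, with 23.8, 24.6 and 31.5 CPM in 2i alone and 7.61, 11.4 and 12.8 CPM in primed cells. It was 2.51-fold higher in 2i, again with no overlap (1.33 ± 0.17, edgeR adjusted p = 2.03e-06).

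The shared partner Max (ENSMUSG00000059436, chromosome 12, 76937269 to 76962201, minus strand) was among the better expressed members, at 162, 158 and 165 CPM in 2i alone and 170, 186 and 183 CPM in primed cells. Its groups did not overlap, yet the change of −0.15 ± 0.08 was small and not called (edgeR adjusted p = 0.164). Mxd3, an MXD repressor linked to S phase and proliferating progenitors (ENSMUSG00000021485, chromosome 13, 55325168 to 55329823, minus strand), had 5.84, 5.16 and 5.81 CPM in 2i alone and 8.70, 7.23 and 7.48 CPM in primed cells. The libraries were again apart, with a change of −0.48 ± 0.20 and an edgeR adjusted p of 0.0645. Mxi1, another MXD repressor (ENSMUSG00000025025, chromosome 19, 53310518 to 53375810, plus strand), ranged over 32.1 to 41.6 CPM in 2i alone and 30.6 to 35.8 CPM in primed cells (0.17 ± 0.12). Mnt, the broadly expressed antagonist of MYC (ENSMUSG00000000282, chromosome 11, 74830920 to 74845725, plus strand), ranged over 40.5 to 45.1 CPM in 2i alone and 33.7 to 42.4 CPM in primed cells (0.13 ± 0.11). Mlx (ENSMUSG00000017801, chromosome 11, 101087277 to 101092207, plus strand) ranged over 61.1 to 74.7 CPM in 2i alone and 65.3 to 75.6 CPM in primed cells (−0.07 ± 0.11). In these last 3 genes the groups overlapped. In all, 1 member was higher and 4 were lower without overlap, beside 24.6% and 25.8% of all genes tested.

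**Figure D1:**
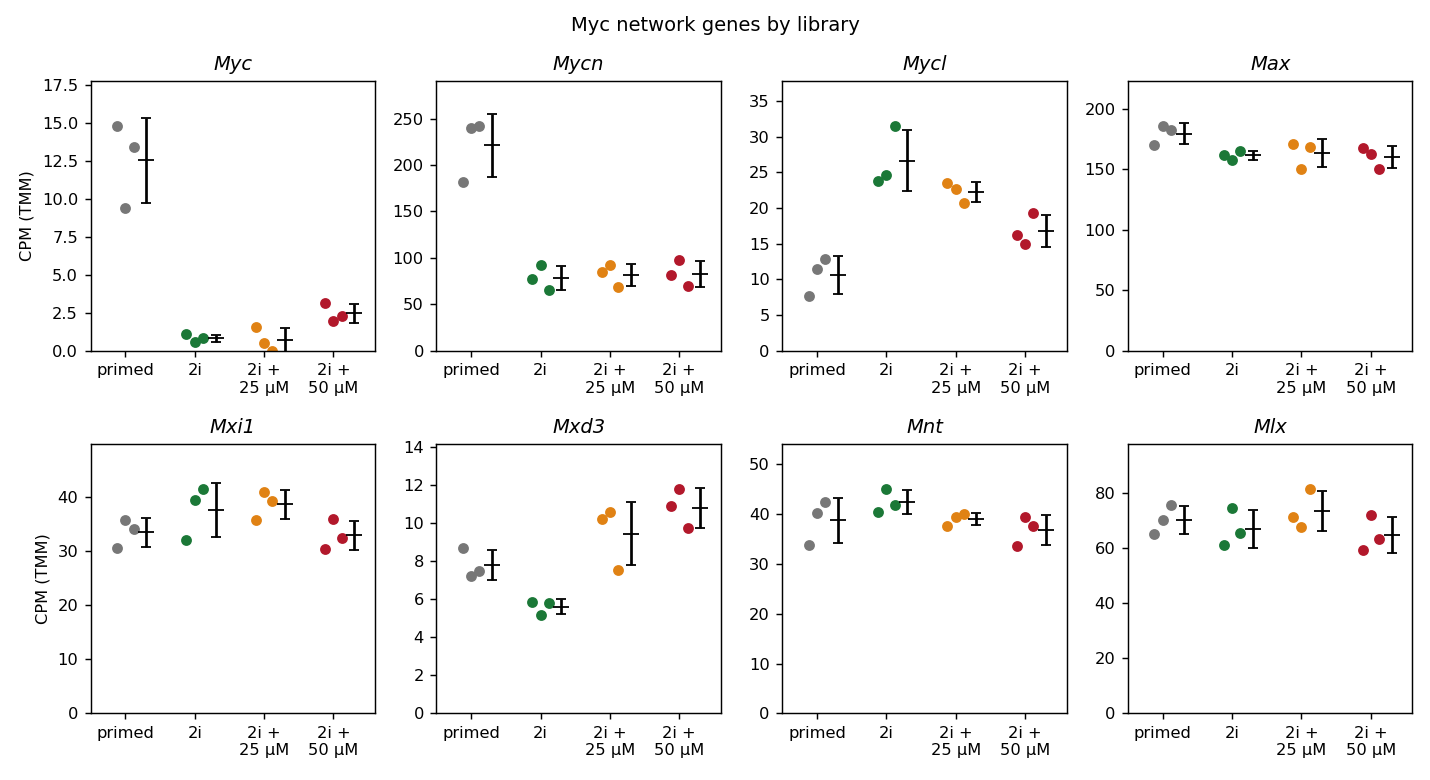
Library-scaled counts (CPM, TMM) of the 8 Myc network genes in the 12 libraries; each point is 1 library, and the bars to the right of each group show the mean and SD (n = 3). Myc and Mycn are highest in primed cells, Mycl is highest in 2i alone at 23.8 to 31.5 CPM, Mxd3 is lowest in 2i alone at 5.16 to 5.84 CPM, and Max, Mxi1, Mnt and Mlx show little separation.

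Some of these genes share their 3′ ends with neighbours, and the sources used here do not state whether the authors counted by strand. The annotation places 105 bases of Mxd3 under Prelid1, an antisense gene with 7994 counts over all libraries, and 385 bases of Mlx under Psmc3ip, an antisense gene with 3204 counts, so their levels are uncertain. The genes that overlap Max and Mxi1 had 9 counts or fewer each.

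Added up, transcripts of the 3 MYC family genes came to 106 ± 10.2 CPM in 2i alone and 245 ± 35.1 CPM in primed cells (SD, n = 3 each). The sums did not overlap, and the two-sided exact permutation p of 0.1 is the smallest that 3 libraries against 3 can give. Mycn made up 73.7 ± 6.06% of the family's counts in 2i alone and 90.4 ± 1.50% in primed cells (SD, n = 3 each). The share of Mycl was 25.5 ± 5.98% in 2i alone and 4.29 ± 0.522% in primed cells, and that of Myc 0.793 ± 0.274% and 5.28 ± 1.83%. Pooled over libraries, the exact 95% binomial interval of the Myc share was 0.443 to 1.25% of 2067 counts in 2i alone and 4.54 to 5.84% of 4589 counts in primed cells. These intervals cover counting error only. The difference in the Myc share was −4.48 percentage points (two-sided exact permutation p = 0.1). Mycn was the most abundant family member in every library.

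**Figure D2:**
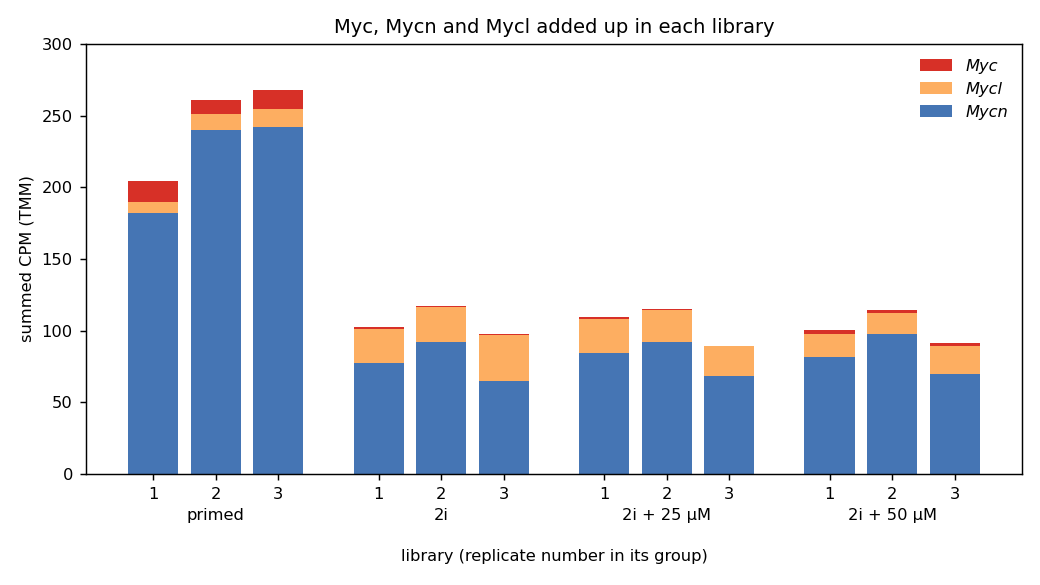
Summed CPM (TMM) of Mycn, Mycl and Myc in each library, stacked; numbers under the bars are replicate numbers. The primed libraries reach 204 to 268 CPM, the six-day libraries lie at 89.3 to 117 CPM in all 3 groups, and the Mycl band is widest in 2i alone.

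The inhibitor at 25 µM in 2i left all 8 genes uncalled against 2i alone by edgeR, where 0.937% of all genes tested were called (0.454% higher and 0.484% lower). Of the 8, 1 had an unadjusted p below 0.05, and DESeq2 and limma voom called none. With the replicate number as a block, 1 was called. That gene was Mxd3, with 10.2, 10.6 and 7.53 CPM at 25 µM and 5.84, 5.16 and 5.81 CPM in 2i alone. Its libraries at 25 µM were all higher than those of 2i alone (0.75 ± 0.20, edgeR adjusted p = 0.0782, and 0.0222 with the replicate block). Mycl, at 23.5, 22.6 and 20.7 CPM at 25 µM and 23.8, 24.6 and 31.5 CPM in 2i alone, lay just under it (−0.26 ± 0.16, edgeR adjusted p = 0.519). Mycn differed by 0.06 ± 0.15 and Max by 0.02 ± 0.08. The sign of the difference in Max turned with size factors from DESeq2 or RLE scaling. Mnt was also lower without overlap, at 37.6 to 40.0 CPM at 25 µM and 40.5 to 45.1 CPM in 2i alone (−0.12 ± 0.11). Thus 1 gene was higher and 2 were lower without overlap, beside 10.2% and 9.25% of all genes tested.

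Myc was near the limit of detection at 25 µM, with 10, 3 and 0 counts in the 3 libraries, or 1.57, 0.488 and 0 CPM, against 7, 4 and 5 counts in 2i alone. A count of 0 allows up to 0.425 CPM in that library. No difference between these groups was detected with so few counts (−0.29 ± 0.68, edgeR adjusted p = 0.903), and the smallest detectable difference was not computed. Without the 25 µM library that had no count, replicate 3, the difference was 0.32.

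At 50 µM Mycl fell and Mxd3 rose against 2i alone, and Myc was higher in each library without passing the edgeR threshold. Of the 8 genes, 1 rose, 1 fell and 6 were not called, beside 15.1% of all genes tested (7.01% higher and 8.07% lower). Without overlap, 2 were higher and 2 lower, beside 16.1% and 16.4% of all genes tested.

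Mycl had 16.2, 14.9 and 19.3 CPM at 50 µM, against 23.8, 24.6 and 31.5 CPM in 2i alone. All libraries at 50 µM were lower, a 1.58-fold lower level (−0.66 ± 0.16, edgeR adjusted p = 0.00860). The adjusted p was 0.0646 without replicate 3 of 2i alone, the highest library, when the change was −0.52. Mxd3 had 10.9, 11.8 and 9.71 CPM at 50 µM and 5.84, 5.16 and 5.81 CPM in 2i alone. The groups were well apart, and the level was 1.93-fold higher (0.95 ± 0.20, edgeR adjusted p = 0.00224). It stayed called without each library in turn, with adjusted p from 0.00543 to 0.0158. Its antisense neighbour Prelid1, which encodes a mitochondrial lipid transfer protein, moved the same way by less (0.27 ± 0.09, edgeR adjusted p = 0.0422, 0.0613 to 0.186 without single libraries, and 0.0586 to 0.104 by DESeq2, with RLE scaling, without the low-count filter or with only these groups in the fit). The part of shared reads in the change of Mxd3 was not tested.

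Myc had 18, 13 and 14 counts at 50 µM and 7, 4 and 5 counts in 2i alone, which made 3.17, 1.94 and 2.27 CPM at 50 µM and 1.07, 0.589 and 0.807 CPM in 2i alone. Every library at 50 µM was above every library of 2i alone, at a level 2.92-fold higher (1.55 ± 0.53). The edgeR adjusted p was 0.0567. It was 0.0106 with the replicate block, 0.0255 by DESeq2, 0.00998 without the low-count filter and 0.0231 with only these groups in the fit. Myc was not called by limma voom, with RLE scaling, without any single library (0.0703 to 0.176) or without replicate 1 of every group (0.0709). Against primed cells, which had 14.8, 9.41 and 13.4 CPM, Myc at 50 µM remained lower by 5.12-fold (−2.36 ± 0.35, edgeR adjusted p = 1.87e-05). The share of Myc in the family's counts was 2.44 ± 0.726% at 50 µM and 0.793 ± 0.274% in 2i alone, a difference of 1.65 percentage points (SD, n = 3 each; two-sided exact permutation p = 0.1, the smallest possible).

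The other members were not called at 50 µM. Mycn had 81.4, 97.4 and 69.8 CPM at 50 µM and 77.7, 91.9 and 65.2 CPM in 2i alone, overlapping almost wholly (0.08 ± 0.15, edgeR adjusted p = 0.767). Max differed by −0.01 ± 0.08, Mlx by −0.05 ± 0.11, Mxi1 by −0.19 ± 0.12 and Mnt by −0.20 ± 0.11, with edgeR adjusted p from 0.227 to 0.943. Mnt was lower at 33.5 to 39.4 CPM at 50 µM and 40.5 to 45.1 CPM in 2i alone. The summed MYC family level was 102 ± 11.5 CPM at 50 µM and 106 ± 10.2 CPM in 2i alone, a difference of −3.58 CPM (SD, n = 3 each; two-sided exact permutation p = 0.7).

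Between the doses, no member was called by edgeR, where 1.16% of all genes tested were called (0.181% higher and 0.975% lower). Of the 8 genes, 2 had an unadjusted p below 0.05, and DESeq2 called 1, limma voom none and the fit with the replicate block 1. Both single calls were Myc, which was higher at 50 than at 25 µM by 1.84 ± 0.56 (edgeR adjusted p = 0.136, 0.0439 by DESeq2, 0.00917 without the low-count filter and 0.0159 with the replicate block). Without replicate 1 of 25 µM, which held 10 of that group's 13 counts, the difference was 3.31 with an edgeR adjusted p of 0.0116, and without replicate 1 of every group 3.08 with 0.0194. Without 25 µM replicate 3, which had no count, it was 1.23 with 0.400, and Myc was not called without any 1 of the other libraries. Mycl was lower at 50 µM by 0.41 on the log2 scale (SE 0.17, edgeR adjusted p = 0.301), with no overlap, while Mxd3 was 0.20 ± 0.18 higher. In this comparison 1 gene was higher and 1 lower without overlap, beside 7.48% and 9.21% of all genes tested.

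Set against primed cells, Myc and Mycn were lower and Mycl higher at both doses. At 25 µM, 1 gene rose, 2 fell and 5 were not called, where 42.3% of all genes tested were called (21.3% higher and 21.0% lower). At 50 µM, 2 rose, 2 fell and 4 were not called, where 44.3% were called (22.6% higher and 21.7% lower). Myc changed by −4.19 ± 0.44 at 25 µM, or by −5.66 and −3.58 without 25 µM replicates 1 and 3. Mycn changed by −1.44 ± 0.15 at 25 µM and −1.42 ± 0.15 at 50 µM, and Mycl by 1.07 ± 0.18 at 25 µM and 0.66 ± 0.18 at 50 µM. The additional rise at 50 µM was that of Mxd3, at 10.9, 11.8 and 9.71 CPM against 8.70, 7.23 and 7.48 CPM in primed cells (0.47 ± 0.19, edgeR adjusted p = 0.0470). It was not called by DESeq2 (adjusted p = 0.117), with RLE scaling (0.0603), without the low-count filter (0.103) or with only these groups in the fit (0.0667). Without 1 library, its adjusted p was 0.131 and 0.118 for primed replicates 2 and 3, and 0.0960, 0.136 and 0.0515 for 50 µM replicates 1, 2 and 3. Without replicate 1 of every group it was 0.0700. These comparisons share the primed libraries with that of 2i alone.

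The order of levels over the 4 groups differed between the genes. Mycl stood highest in 2i alone, then at 25 µM, at 50 µM and in primed cells, with no overlap between neighbours, although 2i alone and 25 µM were not called apart. For Myc, primed cells stood highest and 50 µM next, and 2i alone and 25 µM overlapped below them. For Mycn, primed cells stood above the 3 six-day groups, which overlapped each other. For Mxd3, 50 µM overlapped 25 µM, 25 µM overlapped primed cells, and 2i alone was lowest. Max, Mxi1, Mnt and Mlx were called in none of the 6 comparisons by edgeR with all libraries, while Max at 50 µM against primed cells had an adjusted p of 0.0428 without replicate 1 of every group.

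**Figure D3:**
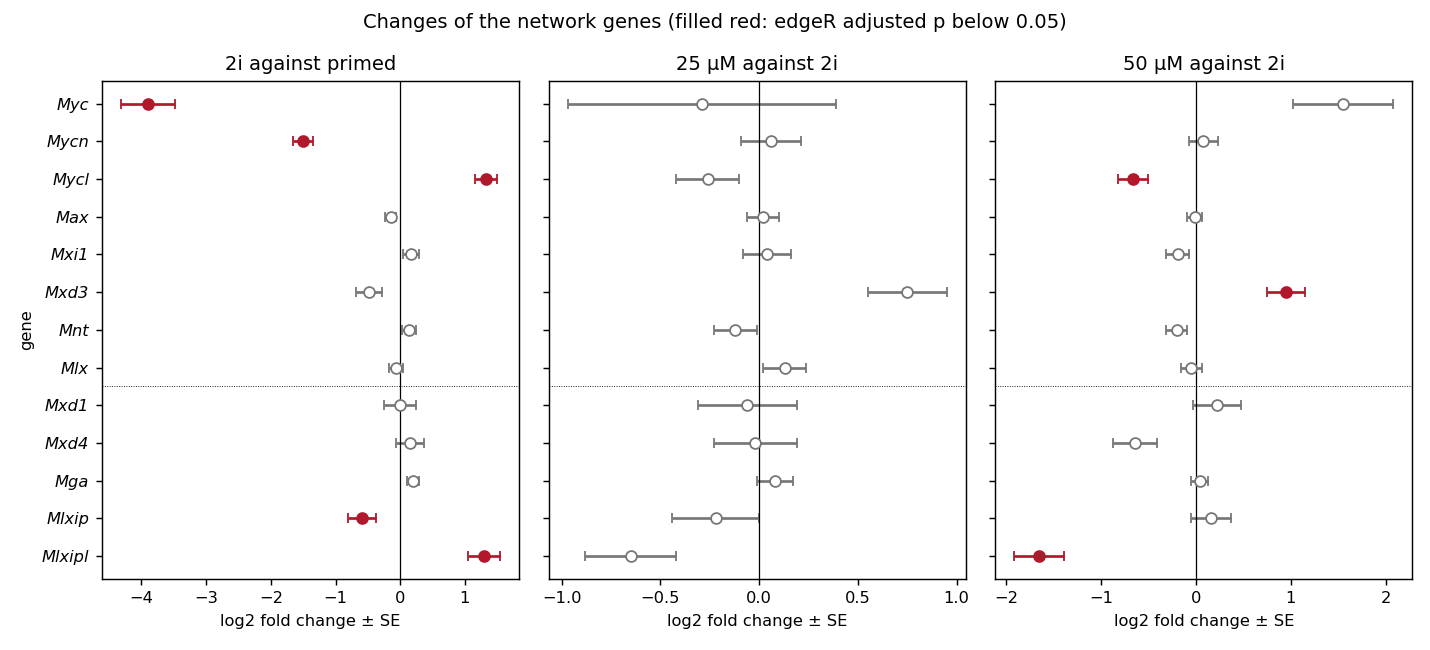
Log2 fold change ± SE (edgeR) of the 8 genes above the dotted line and of 5 other network genes below it, in 2i against primed cells and in each dose against 2i alone; the horizontal scales differ. Filled red points have an adjusted p below 0.05, which Myc, Mycn, Mycl, Mlxip and Mlxipl reach in 2i, none at 25 µM, and Mycl, Mxd3 and Mlxipl at 50 µM.

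The other genes of the network were Mxd1 and Mxd4, MXD repressors, Mga, a MAX partner that anchors a noncanonical Polycomb complex, and Mlxip (MondoA) and Mlxipl (ChREBP), the glucose-responsive partners of MLX. All 5 were tested. In 2i against primed cells 1 rose, 1 fell and 3 were not called, beside 40.4% of all genes tested (20.0% higher and 20.4% lower). At 50 µM against 2i alone 1 fell and 4 were not called, beside 15.1% of all genes tested (7.01% higher and 8.07% lower). Mlxipl had 9.98, 12.4 and 15.3 CPM in 2i alone and 5.13, 5.55 and 4.67 CPM in primed cells, a rise with no overlap (1.29 ± 0.25, edgeR adjusted p = 0.000204). At 50 µM it had 2.47, 3.88 and 5.50 CPM, against those 9.98, 12.4 and 15.3 CPM in 2i alone. That was a fall of 3.14-fold (−1.65 ± 0.26, edgeR adjusted p = 0.000177), to a level that overlapped primed cells. At 25 µM it had 5.96, 10.1 and 7.95 CPM (−0.65 ± 0.23 against 2i alone, edgeR adjusted p = 0.213, and 0.0414 with the replicate block). Between the doses it was 1.00 ± 0.27 lower on the log2 scale at 50 µM (edgeR adjusted p = 0.0773, 0.00712 with the replicate block and 0.00814 without the low-count filter), and the adjusted p was 0.0350 without 25 µM replicate 1 and 0.0479 without 50 µM replicate 3. Mlxip was lower in 2i than in primed cells by 0.59 ± 0.21 on the log2 scale (edgeR adjusted p = 0.0265), a call lost without primed replicates 1 and 3 (0.0605 and 0.0792) and without 2i replicates 2 and 3 (0.0817 and 0.109). Mxd4 had 4.41 to 5.97 CPM at 50 µM and 7.98 to 8.55 CPM in 2i alone (−0.64 ± 0.23, edgeR adjusted p = 0.0593, and 0.0214 with the replicate block). Mxd1 was called in no comparison. Mga, at 190 to 245 CPM in 2i alone and 183 to 201 CPM in primed cells, was not called in 2i (0.20 ± 0.09, edgeR adjusted p = 0.0945, and 0.0147 without 2i replicate 2) or against 2i at either dose. Against primed cells Mga was called higher at 25 µM (0.28 ± 0.09, edgeR adjusted p = 0.0209) and at 50 µM (0.24 ± 0.09, 0.0407). Mlxip was called lower than in primed cells at 25 µM (−0.81 ± 0.21, edgeR adjusted p = 0.00346) but not at 50 µM (−0.42 ± 0.20, 0.1). How far these calls depend on single libraries was not examined.

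The genes that MYC proteins act through or on were described with 6 further lists, and their counts are to be read beside those of all genes tested: 20.0% rose and 20.4% fell in 2i against primed cells, 0.454% and 0.484% at 25 µM and 7.01% and 8.07% at 50 µM against 2i alone. Those shares are of the main fit. With the replicate block, 6294 of the 13230 genes tested were called in 2i against primed cells (3115 higher). Against 2i alone it called 627 at 25 µM (328 higher) and 3240 at 50 µM (1599 higher). The first held 67 genes known from other cells as activated by MYC, in ribosome assembly, nucleotide and polyamine synthesis, glycolysis and the cell cycle, of which Nme2 was too low to test. In 2i against primed cells 27 of 66 fell, 3 rose and 36 were not called. Their median change was −0.21 on the log2 scale, where that of all genes tested was −0.01. Srm, the spermidine synthase, changed by −0.73 ± 0.08 and ornithine decarboxylase Odc1, the enzyme of the step before it, by −0.84 ± 0.12. The ribosome assembly factor Wdr74 changed by −0.82 ± 0.10 and lactate dehydrogenase Ldha, whose reads may be shared with processed copies, by −0.72 ± 0.09. All 4 had edgeR adjusted p from 3.83e-07 to 8.70e-06. Cyclin Ccnd2 (−2.40 ± 0.43) had the greatest fall, while the rises were those of the transferrin receptor Tfrc (0.44 ± 0.10), the cell cycle factor E2f1 (0.39 ± 0.13) and the phosphatase Cdc25a (0.26 ± 0.10). The call of Cdc25a was lost without any 1 library other than primed replicate 1, with edgeR adjusted p from 0.0553 to 0.218. That of E2f1 was lost without primed replicate 1 and without 2i replicate 2 or 3. The groups of E2f1 overlapped, at 32.2 to 49.3 CPM in 2i alone and 28.1 to 34.0 CPM in primed cells. Ccnd2, Tfrc, E2f1 and Cdc25a were picked out here after their values were seen. Without single libraries 20 to 28 of the list fell and 1 to 2 rose, the fewest rises without 2i replicate 2 or 3. The E-box was found in 14 of the 72 promoter windows matched to this list, or 19.4%, beside 6.02% of all windows. An E2F motif was found in 2.78% of the list's windows, beside 0.654% of all, and a TCF motif in 4.17%, beside 7.48%. The windows compared were not matched for base composition.

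**Figure D4:**
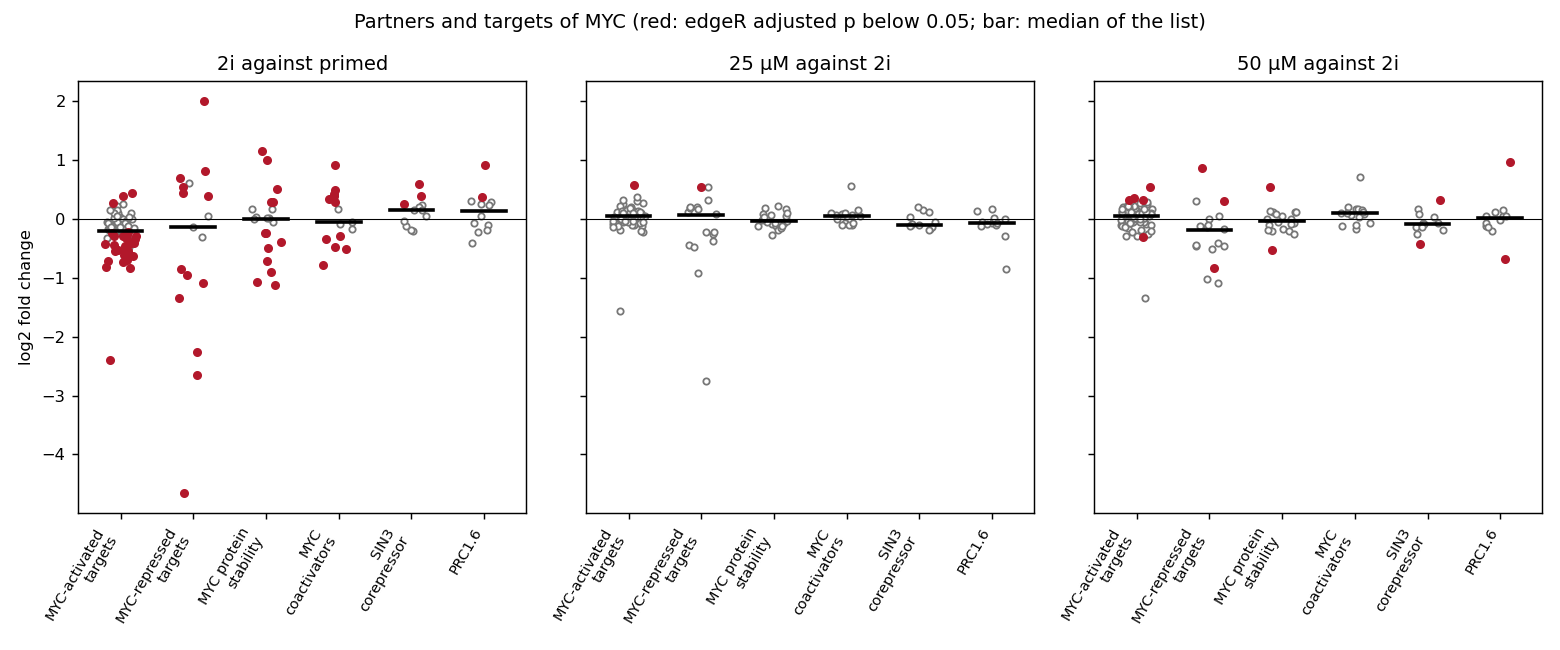
Log2 fold change (edgeR) of each tested gene in 6 lists around MYC, for 2i against primed cells and for each dose against 2i alone; red points have an adjusted p below 0.05 and black bars are list medians. In 2i most red points of the MYC-activated targets lie below 0, with a list median of −0.21, and at either dose few points are red.

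At 25 µM 1 of the 66 activated targets rose, none fell and 65 were not called by edgeR. The rise was that of E2f1 (0.57 ± 0.12, edgeR adjusted p = 0.0312), whose call was lost with only these groups in the fit (0.0759), without replicates 1 and 3 of 2i alone (0.127 and 0.0962) and without 25 µM replicates 1, 2 and 3 (0.0652, 0.104 and 0.0963), and without replicate 1 of every group (0.0855). With the replicate block 4 rose and 1 fell. At 50 µM 4 rose, 1 fell and 61 were not called, and the list median was 0.04 beside 0.01 for all genes tested. With the replicate block 10 rose and 5 fell, where 3240 of the 13230 genes tested were called (1599 higher). E2f1 rose by 0.53 ± 0.12 at 50 µM (edgeR adjusted p = 0.00639, 0.0551 without replicate 1 of 2i alone and 0.0779 without replicate 1 of every group). The DNA repair nuclease Apex1 was higher by 0.32 ± 0.09 (edgeR adjusted p = 0.0198). Its call held only without 50 µM replicate 2, with adjusted p of 0.0562, 0.0852 and 0.0555 without replicates 1, 2 and 3 of 2i alone and 0.149 and 0.108 without 50 µM replicates 1 and 3. The 4 rises became 2, 1 and 1 without replicates 1, 2 and 3 of 2i alone and 1, 5 and 1 without 50 µM replicates 1, 2 and 3, and without replicate 1 of every group 3.

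Genes known as repressed by MYC numbered 18, mostly cell cycle inhibitors and growth arrest genes, of which Gata6 was too low to test. They went both ways in 2i: 6 of 17 rose, 7 fell and 4 were not called, with a median of −0.15. The cyclin-dependent kinase inhibitor Cdkn1a rose by 2.00 ± 0.13, and its relative Cdkn1c fell by 2.65 ± 0.29 on the log2 scale. The stress sensor Gadd45a changed by −2.27 ± 0.15 and the matrix protein Thbs1, which fibroblasts also make, by −4.66 ± 0.40. All 4 had edgeR adjusted p of 9.61e-07 or less. At 25 µM 1 rose, or 2 with the replicate block, and 16 were not called, and at 50 µM 2 rose, 1 fell and 14 were not called. Klf6, a zinc finger factor, was higher in both, by 0.54 ± 0.12 at 25 µM (edgeR adjusted p = 0.0396) and by 0.85 ± 0.12 at 50 µM (9.21e-05). At 25 µM that call was lost by limma voom (0.0506), without replicates 2 and 3 of 2i alone (0.192 and 0.158) and without 25 µM replicates 1, 2 and 3 (0.158, 0.0653 and 0.0929). In 2i against primed cells Klf6 had changed by −0.86 ± 0.12. Ndrg2, of the family named N-Myc downstream regulated genes, changed by −1.09 ± 0.16 in 2i against primed cells and by −0.84 ± 0.19 at 50 µM against 2i alone (edgeR adjusted p = 1.05e-05 and 0.00405). The 2 rises at 50 µM became 1 without replicate 1 or 3 of 2i alone or without 50 µM replicate 1.

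Of 20 genes that act on the stability of MYC proteins, 5 rose and 8 fell in 2i against primed cells and 7 were not called, with a median of 0.00. Pim3, a kinase, changed by −1.13 ± 0.10, the deubiquitinase Usp28 by −1.08 ± 0.13 and the ERK kinase Mapk3 by −0.90 ± 0.11, whereas the related kinase Pim1 rose by 0.99 ± 0.13 (edgeR adjusted p from 5.74e-09 to 2.71e-06). Gsk3b, which encodes a target of 2i that marks MYC for degradation, rose by 1.15 ± 0.21 (edgeR adjusted p = 0.000639), and Fbxw7, the ubiquitin ligase subunit that reads that mark, by 0.50 ± 0.09 (9.13e-05). Gsk3b and Fbxw7 were picked out after their values were seen. The 5 rises became 3 without primed replicate 2 or 3, and the 8 falls became 5 without 2i replicate 3. None of the 20 was called at 25 µM by edgeR or with the replicate block. At 50 µM the ubiquitin ligase Stub1 rose by 0.54 ± 0.11 (edgeR adjusted p = 0.00175) and Pim1 fell by 0.54 ± 0.12 on the log2 scale (0.00615), with 18 not called; with the replicate block 2 fell.

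Of 15 coactivators that MYC proteins recruit, 6 rose and 5 fell in 2i against primed cells and 4 were not called (median −0.05). Wdr5, a histone methyltransferase subunit that holds MYC on chromatin, rose by 0.91 ± 0.09 (edgeR adjusted p = 3.04e-08). The paired ATPases Ruvbl1 and Ruvbl2 changed by −0.51 ± 0.10 and −0.49 ± 0.09. The 6 rises became 4 without primed replicate 2, and the 5 falls became 3 without 2i replicate 2 or 3. None of the 15 was called at either dose against 2i alone by edgeR, and at 50 µM 1 rose with the replicate block.

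The SIN3 corepressor, which MXD proteins and MNT bring to DNA, was covered by 12 genes. In 2i 3 rose and 9 were not called against primed cells (median 0.14). The scaffold Sin3b rose by 0.59 ± 0.08 (edgeR adjusted p = 7.10e-06), and at 50 µM it was lower than in 2i alone by 0.43 ± 0.08 on the log2 scale (0.00147). The other rises in 2i, of Sap30 (0.38 ± 0.13, edgeR adjusted p = 0.0258) and the histone chaperone Rbbp4 (0.24 ± 0.09, 0.0399), depended on single libraries. For Sap30 the adjusted p was 0.0941 without primed replicate 1 and 0.0783 and 0.0586 without 2i replicates 1 and 2. For Rbbp4 it was 0.117 and 0.0960 without primed replicates 1 and 2 and 0.141 and 0.187 without 2i replicates 2 and 3. At 50 µM Suds3 was higher by 0.32 ± 0.10 (edgeR adjusted p = 0.0368), a call that without single libraries held only without replicate 3 of 2i alone (0.0507 to 0.233 without each of the others) and that was lost by DESeq2 (0.0582) and with only these groups in the fit (0.0617). The other 10 were not called, and with the replicate block 1 of the 12 rose and 3 fell, and without replicate 1 of every group 0 and 4.

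The complex PRC1.6, in which MGA and MAX sit with Polycomb subunits, was covered by 12 genes. Among them Wdr5 is also on the coactivator list, and Hdac1 and Hdac2 are also on the SIN3 list. In 2i against primed cells 2 rose, Wdr5 and the ubiquitin ligase Rnf2 (0.37 ± 0.10, edgeR adjusted p = 0.00445), and the other 10 were not. At 50 µM its relative Ring1 rose by 0.96 ± 0.23 (edgeR adjusted p = 0.00826). Yaf2 was lower by 0.68 ± 0.20 on the log2 scale (0.0247), and not called without replicates 2 and 3 of 2i alone (0.108 and 0.0637) or 50 µM replicates 1 and 3 (0.0536 and 0.0769). None of the SIN3 or PRC1.6 genes was called at 25 µM by edgeR or with the replicate block.

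For each of the 8 genes, the 3 genes with the most similar pattern were found by Pearson's r of log2 CPM over the 12 libraries, among named genes whose log2 CPM averaged 3 or more. The libraries share their groups, so r follows the group means, and it is given as a description. Nearest to Myc were Nfkb1 (r = 0.980), Dld (0.965) and Nup37 (0.964), and to Mycn Ctu2 (0.975), Pfkl (0.974) and Adk (0.974). The nearest to Mycl were Serpinb6c (0.964), Ostf1 (0.957) and Prrc1 (0.957). Serpinb6c differed by −0.66 ± 0.16 at 50 µM against 2i alone, as did Mycl. Mxd3 was nearest to Arhgdia (0.930), Cxxc1 (0.911) and E2f2 (0.902), an E2F factor of the cell cycle that was 1.00 ± 0.18 higher at 50 µM than in 2i alone (edgeR adjusted p = 0.000635). Serpinb6c and E2f2 were chosen by likeness over these same libraries, so their changes are not independent of those of Mycl and Mxd3. For Max the nearest were G6pdx (0.909), Crebrf (0.884) and Parn (0.874), for Mxi1 Ncbp3 (0.929), Igf2r (0.912) and Pdia6 (0.885), and for Mnt Rp2 (0.893), Cntnap2 (0.875) and Fbxl20 (0.866). Mlx had the least similar neighbours, Cc2d1a (0.846), Slc35f6 (0.817) and Emc6 (0.777).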

How the data were processed

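The 3′ ends of mRNA were sequenced from mouse embryonic stem cells in 12 libraries, 4 groups of 3, with 1 table of raw counts per gene deposited by the authors for each. Per the submitters' processing notes, FastQC, STAR and DESeq2 1.32.0 and the build GRCm38 were used; the sources used here do not give the STAR version, the counting tool, the annotation release, the strand setting or whether molecular identifiers were used. The tables held 56805 features, of which 114 spike-in features with 2 counts in all were dropped. The series-wide table, whose counts were identical, was not used.

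Counts were tested in R 4.3.3 with edgeR 4.0.16 (TMM, filterByExpr, robust quasi-likelihood fit of all 12 libraries). The SE is the log2 fold change divided by the square root of F. Replicates of a group differed beyond counting error (chi-square over degrees of freedom 2.48 to 11.7), so none was treated as a duplicate. Alternatives were DESeq2 1.42.0, limma 3.58.1 (voom), RLE scaling, no low-count filter, only the groups compared, the replicate number as a block, leaving out each library and, added after seeing the data, leaving out replicate 1 of every group. Deviations of same-numbered libraries from their group means correlated at 0.155 to 0.3135 between 25 µM and 2i alone. They correlated at 0.1146 to 0.2493 between 50 µM and 2i alone and at 0.1336 to 0.2862 between the doses. Pairs with primed did not all pass 0.1 (0.1632 to 0.244 for replicate 1, 0.0115 to 0.1357 for replicates 2 and 3). By that cut the numbers, taken from the labels, were read as pairing only the six-day libraries. The ranges overlapped, and correlations of unlike-numbered libraries were not computed, so whether the numbers pair libraries is uncertain in both cases. The fits were tested on simulated data.

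The 8 genes and the lists were chosen with earlier results of these data known. The rule named up to 4 called genes of each list with the smallest p in 2i against primed and up to 2 at each dose, and 3 nearest genes per member; genes outside it are said to be so or are overlapping neighbours, and 1 item that it names is not reported here. Floors use 3 counts per library. Promoter sequences are RefSeq's, on GRCm38.p6, and gene positions are GENCODE's on GRCm38.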

Additional observations from a re-analysis of the deposited data

How the results depend on the processing

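Of the 3 calls among the 8 genes in 2i against primed cells, all 3 were made under every alternative run. At the doses the counts of calls depended on the fit. At 25 µM against 2i alone, 124 genes were called, and 268 without the low-count filter, 627 with the replicate block and 29 to 101 without single libraries; of the 8 genes 0 were called, and 1 with the block. At 50 µM against 2i alone, 1994 genes were called, 3240 with the block and 1217 to 1668 without single libraries; of the 8 genes 2 were called, 3 by DESeq2, without the filter, with only the groups compared and with the block, and 1 to 2 without single libraries. Between the doses, 153 genes were called, 329 without the filter, 542 with the block and 38 to 203 without single libraries; of the 8 genes 0 were called, 1 by DESeq2, without the filter and with the block, and 0 to 1 without single libraries. Without replicate 1 of every group, an alternative chosen after seeing the data, 238 genes and 1 member were called between the doses and the family sum differed by 0.691 CPM; the counts of genes and members called stayed within 1.5 times in the other 5 comparisons. Among the other named genes 6 lost their call there, those of Sap30 in 2i, of E2f1 at both doses and of Suds3, Apex1 and Prelid1 at 50 µM. The share of higher calls between the doses was 31.0% with the block and 15.7% without it. Whether the numbers pair libraries with those of primed cells is uncertain. Against primed cells the block gave 6294 calls in 2i, 6543 at 25 µM and 6786 at 50 µM. In 2i it gave an edgeR adjusted p of 0.0499 for Mxd3 and 0.0213 for Mga. There 5 of the SIN3 genes rose and 2 fell, and 3 and 2 of the PRC1.6 genes. Beyond the values given beside the results, the block changed no call of a member or of another named gene in the six-day comparisons. The cause of these differences was not tested.

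Small, uncalled differences changed sign. Max at 25 µM against 2i alone came to −0.00023 by DESeq2 and −0.0005 with RLE scaling, and Mnt at 25 µM against primed cells to −0.01 by both. Without replicate 1 of every group Max and Mxi1 at 25 µM against 2i alone came to −0.03 each and Mnt at 25 µM against primed cells to −0.06. Without single libraries, at 25 µM against 2i alone, log2 changes ranged over −1.76 to 0.32 for Myc, −0.06 to 0.18 for Mycn, −0.02 to 0.08 for Max and −0.08 to 0.11 for Mxi1. At 50 µM against 2i alone they ranged over −0.05 to 0.21 for Mycn, −0.07 to 0.01 for Max and −0.14 to 0.04 for Mlx, and between the doses over −0.10 to 0.12 for Mycn and −0.09 to 0.01 for Max. Against primed cells, Mlx ranged over −0.14 to 0.01 in 2i and −0.02 to 0.13 at 25 µM, Mnt over −0.08 to 0.07 at 25 µM and Mxi1 over −0.08 to 0.03 at 50 µM. The difference in the Myc share at 25 µM against 2i alone ranged over −0.58 to 0.134 percentage points. The summed CPM differed by −6.15 to 6.62 at 25 µM against 2i alone, −9.65 to 2.12 at 50 µM against 2i alone and −10.2 to 2.87 between the doses. Among the other named genes, leaving out single libraries ended a call in 47 tests, made one in 3 and changed none in 226. These tests did not include E2f1 in 2i against primed cells, or Mga and Mlxip at the doses against primed cells. With 13 to 45 Myc counts per six-day group, depth limits what can be said of Myc at the doses.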
